A study of Mus musculus with 16 samples.

Results

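RNA from hair follicle stem cells (HFSCs) was compared with RNA from progenitor cells when both had been exposed to N1-acetylspermidine (N1-AcSpd). The comparison rests on 4 of the 16 libraries of the series, chosen by their labels: 2 RNA-seq libraries of treated α6+CD34+ HFSCs and 2 of treated α6+CD34− progenitors. All came from 3D-3C organoids, a three-dimensional culture of C57BL/6J mouse epidermal cells in which HFSCs and progenitors coexist, grown for 2 weeks in keratinocyte medium with the ROCK inhibitor Y27632, VEGF and FGF2. N1-AcSpd was present for the last 72 h, and the cells were then sorted on α6 integrin and CD34. One library of each population came from each of 2 mice. The study took epidermis from male and female mice in the resting phase of the hair cycle (telogen). It gives postnatal age windows for its mice, but not the age or sex of these 2 donors. The other RNA-seq libraries, from untreated HFSCs and untreated progenitors of the same mice, entered the same fit of 8 libraries in 4 groups, and Ribo-seq libraries from the same lysates provided a second readout.

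HFSCs reside in the bulge of the hair follicle, where they are marked by CD34 and keratin 15 and are held in place by a specialised basement membrane. The study describes the α6+CD34− progenitors of this culture as progeny of HFSCs, made up of outer root sheath and inner bulge cells. Differentiation of epidermal cells proceeds through desmosome remodelling, synthesis of barrier lipids and assembly of a cross-linked protein shell, the cornified envelope. N1-AcSpd is the acetylated form of spermidine made by the enzyme SAT1 during polyamine catabolism.

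The 4 libraries held between 21601141 and 31505435 counts over the transcripts kept, 1 per gene. The test took in 12242 genes whose counts averaged 10 or more across the 8 RNA-seq libraries. Levels are given as CPM, the counts scaled to a common library size with TMM factors, which compares 1 gene between libraries but not 1 gene with another. Mitochondrially encoded genes took 8.96% and 8.20% of counts in treated HFSCs and 5.70% and 8.20% in treated progenitors, and the part of this share in the results was not tested. The difference between replicates 1 and 2 correlated between 0.35 and 0.67 across genes for the other 3 RNA-seq groups, but between −0.63 and −0.38 for treated HFSCs against those groups, so these 2 libraries go against the pattern of the rest. The populations were therefore compared without pairing, and that comparison stays the same if the 2 numbers are exchanged. Values in parentheses after CPM give the difference on the log2 scale, positive where HFSCs were higher, with its SE and the adjusted P of edgeR's quasi-likelihood test, with 2 libraries a group.

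Genes with more RNA in treated HFSCs than in treated progenitors included 4 of 22 bulge genes tested, one of them the sorting gene Cd34. Genes with less RNA included 10 of 42 for the cornified envelope, 6 of 29 for cross-linking enzymes, proteases and inhibitors and 6 of 30 for barrier lipids. No tested member of these 3 lists passed as higher at an adjusted P below 0.05, the threshold for all these counts. The lists were written with earlier results of these data known, so the counts are a description. At an adjusted P below 0.05, 97 genes or 0.792% of those tested differed, of which 41 were higher (0.335%) and 56 lower (0.457%) in HFSCs. At an unadjusted P below 0.05 the shares were 6.39% higher and 5.89% lower. The median log2 fold change was 1.27 for the higher genes, with a range from 0.61 to 4.35, and −1.72 for the lower genes, with a range from −2.99 to −0.70. A change of at least 2-fold was measured for 27 of the higher and 41 of the lower genes. The 2 HFSC libraries did not overlap with the 2 progenitor libraries for any of the 97 genes. The same libraries chose these genes, so this is in part built into the choice. Of all genes tested, 19.9% and 20.0% were without overlap in the higher and lower direction. With the replicate number as a block in the fit, 33 genes passed, 17 higher and 16 lower, and with the 2 numbers of treated HFSCs exchanged in the block, a choice made after seeing the data, 882 passed. DESeq2 without a block called 389. The count also rested on having 2 libraries on each side: it was 0 without HFSC replicate 1, 10 without HFSC replicate 2, 0 without progenitor replicate 1 and 18 without progenitor replicate 2. Of the 97 genes, 17 passed in at least 1 of these 4 fits, and the direction of all 97 was the same in each. In bulk samples, fewer cells of a type and less RNA per cell cannot be told apart.

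**Figure D1:**
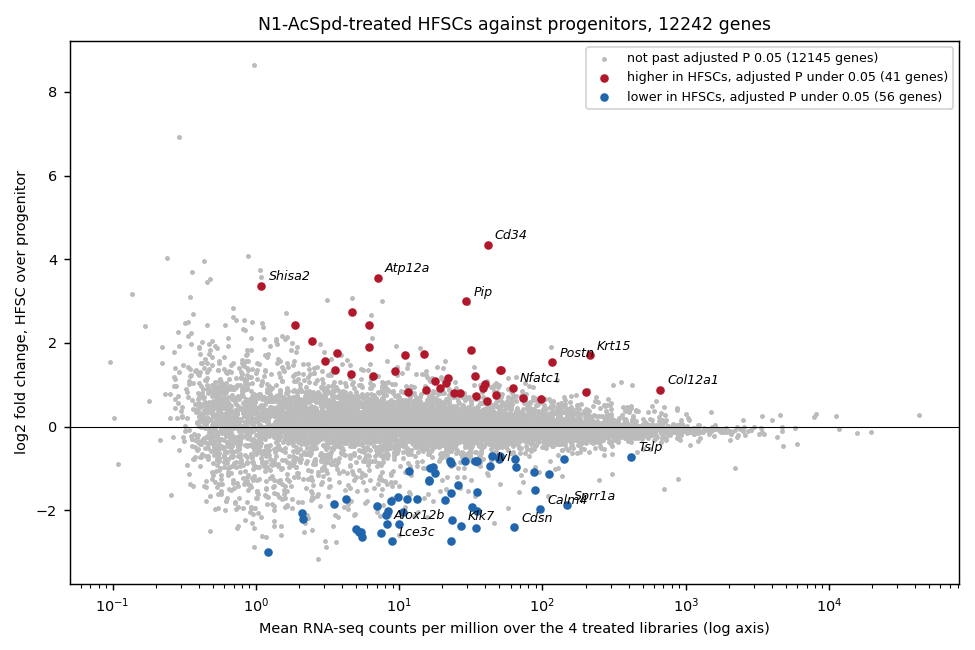
Each point is 1 of the 12242 genes tested, with its mean RNA level over the 4 treated libraries (CPM, log axis) against its log2 fold change in treated HFSCs over treated progenitors; red points are the 41 genes higher and blue points the 56 genes lower at an adjusted P below 0.05. The genes that passed range in level from Shisa2 to Col12a1, and the widest scatter of grey points lies at low levels.

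The sorting gene Cd34 and 5 genes picked as markers of the populations with earlier results of these data known are given first. Cd34, which encodes the surface protein used for sorting, reached 90.1 and 68.1 CPM in HFSCs and 2.40 and 5.37 CPM in progenitors. Both HFSC libraries were far above both progenitor libraries, and because CD34 protein was the gate this is a check of the labels. Krt15, encoding the bulge keratin 15, had 347 and 308 CPM in HFSCs and 104 and 97 CPM in progenitors (1.71 ± 0.12, adjusted P = 0.00487). Susd2, a gene for a sushi domain membrane protein, had 50 and 49.4 CPM in HFSCs and 12.6 and 15.2 CPM in progenitors. Among the progenitor markers, Tmprss4, a transmembrane serine protease gene, had 16.2 and 19.6 CPM in HFSCs and 58.7 and 46.4 CPM in progenitors. Ivl, which encodes the envelope precursor involucrin, had 29.0 and 29.5 CPM in HFSCs and 56.4 and 56.1 CPM in progenitors, with the 2 libraries of a population nearly identical. Alox12b, encoding a lipoxygenase that processes barrier ceramides, had 2.50 and 2.94 CPM in HFSCs and 13.1 and 14.4 CPM in progenitors. All 6 are among the 97 genes, so that their libraries were apart follows from how they were picked.

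Markers of basal keratinocytes were abundant in both populations. The basal keratin gene Krt5 had 19291 and 18102 CPM in HFSCs and 20198 and 20692 CPM in progenitors, and its partner Krt14 had 14829 and 14625 CPM in HFSCs and 15585 and 17243 CPM in progenitors. The log2 fold changes were −0.13 ± 0.10, adjusted P = 0.724 for Krt5 and −0.16 ± 0.11, adjusted P = 0.694 for Krt14. Itga6, which encodes the α6 integrin on which both populations were sorted, had 805 and 846 CPM in HFSCs and 985 and 935 CPM in progenitors (−0.22 ± 0.11, adjusted P = 0.473). The HFSC libraries lay slightly below the progenitor libraries for these genes, and no difference passed the test.

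The higher genes below were grouped by known role after their values were seen, and the grouping was not tested. Some encode secreted or matrix proteins. Ptn, the gene for the heparin-binding growth factor pleiotrophin, had 16.4 and 17.1 CPM in HFSCs and 5.3 and 4.84 CPM in progenitors (1.72 ± 0.15, adjusted P = 0.00747). Ltbp2, encoding a microfibril protein of the family named latent TGFβ binding proteins, had 3.88 and 4.09 CPM in HFSCs and 0.996 and 0.919 CPM in progenitors (2.05 ± 0.21, adjusted P = 0.0122). Col12a1, encoding the fibril-associated collagen XII, had 886 and 836 CPM in HFSCs and 475 and 457 CPM in progenitors (0.89 ± 0.10, adjusted P = 0.0122). These 3 genes differed about 2- to 4-fold between populations and by less than 10% between the libraries of a population. Postn, the gene for the matricellular protein periostin, had 190 and 159 CPM in HFSCs and 53.3 and 66.7 CPM in progenitors. Pxdn, encoding a peroxidase that cross-links collagen IV, had 74.2 and 73.3 CPM in HFSCs and 30.7 and 27.1 CPM in progenitors. Itga8, which encodes an integrin subunit that binds nephronectin, had 12.9 and 7.85 CPM in HFSCs and 1.36 and 2.52 CPM in progenitors. For Itga8 the HFSC libraries differed from each other by more than those of Pxdn, yet both exceeded the progenitor libraries. Adamts9, a matrix metalloprotease gene, Matn2, the gene for matrilin 2, and Csgalnact1, an enzyme of chondroitin sulphate synthesis, also passed, with log2 fold changes of 1.33 ± 0.19, 0.68 ± 0.11 and 1.57 ± 0.25 (SE).

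Other higher genes, grouped in the same way, encode transcriptional regulators and signalling proteins. Nfatc1, a transcription factor that keeps bulge cells quiescent, had 79.8 and 83.2 CPM in HFSCs and 46.2 and 39.1 CPM in progenitors (0.93 ± 0.11, adjusted P = 0.0166). Gli2, the main transcriptional effector of hedgehog signalling, had 32.6 and 24.7 CPM in HFSCs and 14.5 and 13.5 CPM in progenitors (1.03 ± 0.16, adjusted P = 0.037). Atoh8, a basic helix-loop-helix factor gene, was low throughout, with 3.21 and 3.13 CPM in HFSCs and 0.634 and 0.532 CPM in progenitors. All 3 factors were higher in both HFSC libraries than in either progenitor library. Sostdc1, a secreted antagonist of BMP and Wnt signalling, had 221 and 296 CPM in HFSCs and 146 and 143 CPM in progenitors (0.84 ± 0.14, adjusted P = 0.0428). Cdkn1b, encoding the cell cycle inhibitor p27, had 65.8 and 53.8 CPM in HFSCs and 35.9 and 34.6 CPM in progenitors (0.76 ± 0.12, adjusted P = 0.037). Trp73, encoding the p53 family member p73, had 47.2 and 51.6 CPM in HFSCs and 33.5 and 31.4 CPM in progenitors (0.61 ± 0.10, adjusted P = 0.0446). Their fold changes were under 2, and their libraries were still apart. Shisa2, which encodes an inhibitor of Wnt and FGF receptor maturation, was measured at 2.46 and 1.53 CPM in HFSCs and 0.181 and 0.194 CPM in progenitors, a large ratio at a low level.

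Other genes higher in HFSCs belonged to none of the lists used here. Atp12a, which encodes the non-gastric proton potassium pump, had 16.2 and 10.0 CPM in HFSCs and 0.860 and 1.35 CPM in progenitors (3.56 ± 0.36, adjusted P = 0.0118). Cp, the gene for the copper-carrying ferroxidase ceruloplasmin, had 21.7 and 23.9 CPM in HFSCs and 6.88 and 6.82 CPM in progenitors (1.73 ± 0.18, adjusted P = 0.0118). Arl4c, a small GTPase gene, had 51.7 and 42.8 CPM in HFSCs and 19.1 and 21.6 CPM in progenitors (1.21 ± 0.14, adjusted P = 0.0166). In each of them the HFSC libraries were at least about 2-fold above the progenitor libraries. Hist1h2ap, a histone H2A gene that belongs to a family of near-identical copies, had 7.35 and 8.91 CPM in HFSCs and 0.996 and 1.45 CPM in progenitors, and its reads could not be assigned to 1 copy with certainty. Pip, encoding the secreted prolactin-induced protein, had 70.7 and 33.4 CPM in HFSCs and 3.94 and 9.15 CPM in progenitors, so that the libraries of a population differed about 2-fold while the populations stayed apart.

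**Figure D2:**
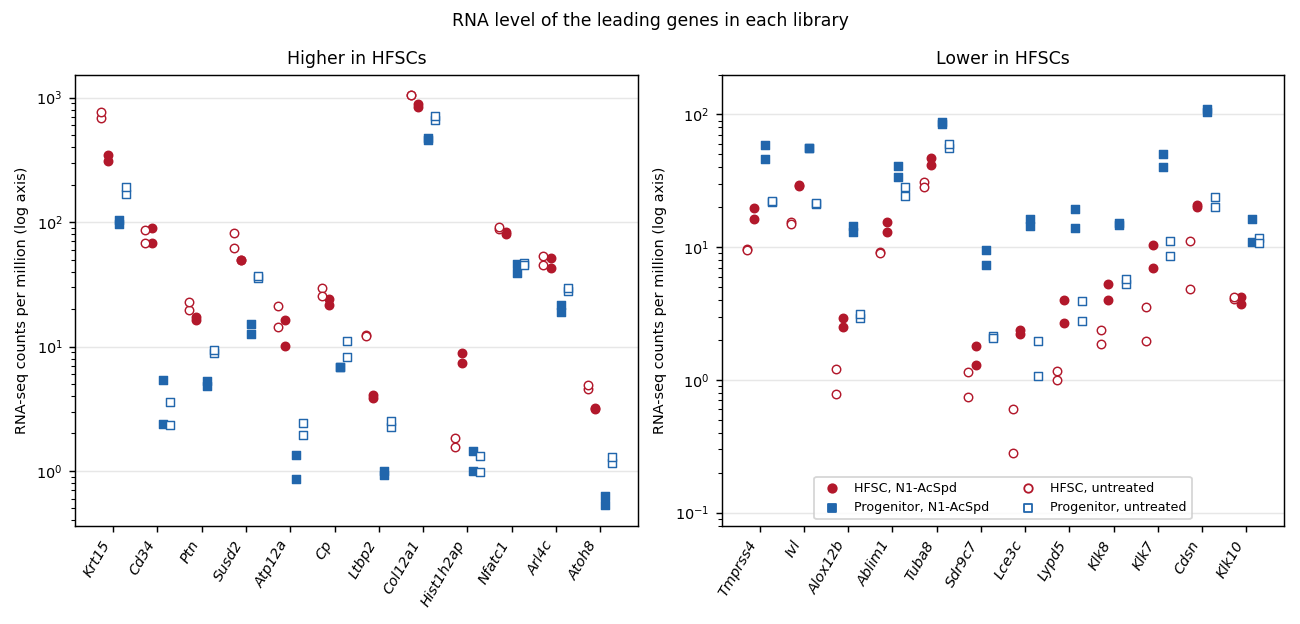
RNA level (CPM, log axis) of the 12 genes of each direction with the smallest P in all 8 RNA-seq libraries; red circles are HFSCs, blue squares progenitors, filled symbols N1-AcSpd-treated and open symbols untreated libraries, 1 symbol per library. Filled circles and filled squares are apart for every gene shown, which follows in part from how the genes were picked. On the right the filled squares of Cdsn, at 105 and 110 CPM, stand above all other libraries.

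Among the genes lower in HFSCs, structural proteins of the cornified envelope formed the list with the most calls. Of 50 such genes listed, 42 were tested, 10 were lower at an adjusted P below 0.05, none was higher, and 41 of the 42 had a log2 fold change below 0. Of the 42, 35 were lower at an unadjusted P below 0.05. The median over the list was −1.76, against 0.0009 over all genes tested. Cdsn, which encodes corneodesmosin, the adhesion protein of cornified cells, had 20.8 and 20 CPM in HFSCs and 105 and 110 CPM in progenitors (−2.40 ± 0.30, adjusted P = 0.0192). Cnfn, encoding cornifelin, had 10.8 and 10.8 CPM in HFSCs and 57.5 and 58.3 CPM in progenitors (−2.42 ± 0.40, adjusted P = 0.0428), and Kprp, a keratinocyte proline-rich protein gene, had 1.54 and 1.63 CPM in HFSCs and 11.8 and 6.53 CPM in progenitors (−2.53 ± 0.39, adjusted P = 0.037). Progenitors thus held about 5-fold more Cdsn and Cnfn RNA, with little spread between the libraries of a population. The small proline-rich genes Sprr1a and Sprr1b encode cross-bridging proteins of the envelope. Sprr1a had 67.0 and 58.9 CPM in HFSCs and 223 and 242 CPM in progenitors, and Sprr1b had 77.7 and 61.4 CPM in HFSCs and 135 and 169 CPM in progenitors. The ratio was larger for Sprr1a than for Sprr1b, and neither overlapped. Sprr2h of the same family had 48.3 and 64.0 CPM in HFSCs and 120 and 119 CPM in progenitors, and Sprr2d had 4.17 and 6.26 CPM in HFSCs and 17.8 and 16.9 CPM in progenitors. Of the late cornified envelope genes, Lce3c had 2.21 and 2.39 CPM in HFSCs and 14.4 and 16.4 CPM in progenitors and Lce3d had 1.59 and 1.5 CPM in HFSCs and 9.33 and 8.47 CPM in progenitors. The Sprr and Lce genes are families of similar sequence, so reads may have been split between members. Scel, the gene for sciellin, was the member with the opposite sign, at 17.4 and 11 CPM in HFSCs and 5.39 and 5.08 CPM in progenitors (1.43 ± 0.28, adjusted P = 0.0694). Lor, encoding the late envelope protein loricrin, had 0.668 and 0.671 CPM in HFSCs and 3.12 and 1.94 CPM in progenitors (−1.91 ± 0.48, adjusted P = 0.144).

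Several proteases of the cornified layer were lower in HFSCs. In the list of cross-linking enzymes, proteases and inhibitors, 6 of 29 tested members were lower and none was higher at an adjusted P below 0.05. The median log2 fold change was −1.29. Kallikrein 5, a trypsin-like protease that starts the desquamation cascade, had Klk5 RNA at 1.96 and 2.39 CPM in HFSCs and 14.1 and 11.4 CPM in progenitors (−2.54 ± 0.33, adjusted P = 0.0214). Klk7, the chymotrypsin-like kallikrein that cleaves corneodesmosin, had 7.01 and 10.4 CPM in HFSCs and 50 and 40.3 CPM in progenitors (−2.37 ± 0.29, adjusted P = 0.0186). Klk8 had 4.01 and 5.27 CPM in HFSCs and 14.8 and 15.1 CPM in progenitors, and Klk10 had 3.76 and 4.25 CPM in HFSCs and 16.3 and 10.9 CPM in progenitors. All 4 kallikrein genes were 3- to 6-fold lower in HFSCs. Tmprss13, another membrane serine protease gene, differed less, with 34.7 and 32.7 CPM in HFSCs and 54.9 and 54.4 CPM in progenitors (−0.70 ± 0.12, adjusted P = 0.0437). Tgm1, the transglutaminase that cross-links the envelope, had 11.5 and 20.9 CPM in HFSCs and 63.0 and 39.7 CPM in progenitors (−1.66 ± 0.34, adjusted P = 0.0836), and leaving out progenitor replicate 1 moved the median of the list to −0.66.

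Genes of barrier lipid synthesis and transport were also among the lower genes. Of 30 tested enzymes and transporters, 6 were lower and none was higher at an adjusted P below 0.05. The median log2 fold change was −0.82, and −0.53 without progenitor replicate 1. Sdr9c7, a dehydrogenase of the pathway that binds ceramides to the envelope, had 1.29 and 1.79 CPM in HFSCs and 9.60 and 7.40 CPM in progenitors (−2.45 ± 0.30, adjusted P = 0.0186). Elovl4, which makes the very long acyl chains of these ceramides, had 9.64 and 17.3 CPM in HFSCs and 56.9 and 44.9 CPM in progenitors (−1.91 ± 0.30, adjusted P = 0.0391), and Pnpla1, which esterifies them with linoleate, had 2.25 and 4.34 CPM in HFSCs and 15.4 and 11.5 CPM in progenitors (−2.01 ± 0.34, adjusted P = 0.0449). These 3 genes differed about 4- to 6-fold in mean level, and their progenitor libraries were above both HFSC libraries. Degs2, a hydroxylase making phytoceramides, had 1.59 and 1.44 CPM in HFSCs and 5.43 and 5.52 CPM in progenitors (−1.86 ± 0.28, adjusted P = 0.0369), and Abca12, the lipid transporter of lamellar granules, had 110 and 98.7 CPM in HFSCs and 167 and 193 CPM in progenitors (−0.78 ± 0.12, adjusted P = 0.0369). Alox12e, an epidermal lipoxygenase gene, had the opposite sign at 2.00 and 1.76 CPM in HFSCs and 0.453 and 0.677 CPM in progenitors (1.73 ± 0.43, adjusted P = 0.139).

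Desmosomal and suprabasal genes had calls in the same direction. Of 14 desmosomal genes tested, 2 were lower, none was higher, and the median was −0.27. Dsg1b, a desmoglein of differentiated layers, had 38.9 and 53.1 CPM in HFSCs and 152 and 112 CPM in progenitors (−1.52 ± 0.20, adjusted P = 0.0214), and Dsc1, the matching desmocollin, had 9.85 and 17.5 CPM in HFSCs and 65.3 and 46.6 CPM in progenitors (−2.02 ± 0.27, adjusted P = 0.0219). Dsp, the gene for the shared linker desmoplakin, had 4670 and 3336 CPM in HFSCs and 4301 and 5162 CPM in progenitors, so its libraries overlapped. Of 12 suprabasal genes tested, 2 were lower, none was higher, and the median was −1.05. They were Calm4, a calmodulin-like protein gene of differentiating keratinocytes, at 27.8 and 50.3 CPM in HFSCs and 176 and 132 CPM in progenitors (−1.98 ± 0.29, adjusted P = 0.0326), and Krt80, a keratin gene, at 12.4 and 10.5 CPM in HFSCs and 37.2 and 31.5 CPM in progenitors (−1.59 ± 0.24, adjusted P = 0.0369). Krt1 and Krt10, which encode the keratin pair of spinous cells, were without overlap between the populations. Krt1 had 16.2 and 31.4 CPM in HFSCs and 119 and 63.5 CPM in progenitors, and Krt10 had 3.38 and 8.05 CPM in HFSCs and 35.2 and 15.8 CPM in progenitors. Neither passed the test, at adjusted P = 0.0655 for Krt1 and 0.106 for Krt10. The transcription factors of epidermal differentiation had no member past the threshold among 24 tested, with 21 below 0 and a median of −0.34. Klf4, a factor required for barrier formation, had 213 and 214 CPM in HFSCs and 278 and 307 CPM in progenitors (−0.45 ± 0.10, adjusted P = 0.106), and Grhl3, a grainyhead-like factor, had 9.22 and 18.8 CPM in HFSCs and 47.5 and 30.9 CPM in progenitors (−1.48 ± 0.36, adjusted P = 0.139).

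Some lower genes have other roles. Tslp, encoding an epithelial cytokine that activates dendritic cells, had 296 and 337 CPM in HFSCs and 515 and 523 CPM in progenitors (−0.71 ± 0.11, adjusted P = 0.0328). Defb1, a defensin gene, had 36.3 and 36.4 CPM in HFSCs and 63.5 and 61.7 CPM in progenitors (−0.78 ± 0.13, adjusted P = 0.0428), and Hmox1, encoding the stress-induced heme oxygenase 1, had 48.0 and 48.2 CPM in HFSCs and 84.3 and 79.1 CPM in progenitors (−0.76 ± 0.10, adjusted P = 0.0218). The populations were apart for all 3 genes, by less than 2-fold. Of 31 cytokine and alarmin genes tested, Tslp and Defb1 were lower and none was higher, with a median of −0.11, which was −0.78 without HFSC replicate 2. Cldn4, a tight junction claudin gene, had 5.3 and 6.99 CPM in HFSCs and 23.6 and 17.0 CPM in progenitors (−1.72 ± 0.23, adjusted P = 0.0214), and Gjb6, encoding the gap junction protein connexin 30, had 8.64 and 10.2 CPM in HFSCs and 22.5 and 23.5 CPM in progenitors (−1.28 ± 0.17, adjusted P = 0.0214). Ablim1, an actin-binding protein gene, had 13.1 and 15.4 CPM in HFSCs and 40.8 and 33.9 CPM in progenitors (−1.39 ± 0.15, adjusted P = 0.0122), and Tuba8, an α-tubulin gene, had 41.3 and 46.7 CPM in HFSCs and 84.8 and 88.1 CPM in progenitors (−0.97 ± 0.11, adjusted P = 0.0122).

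**Figure D3:**
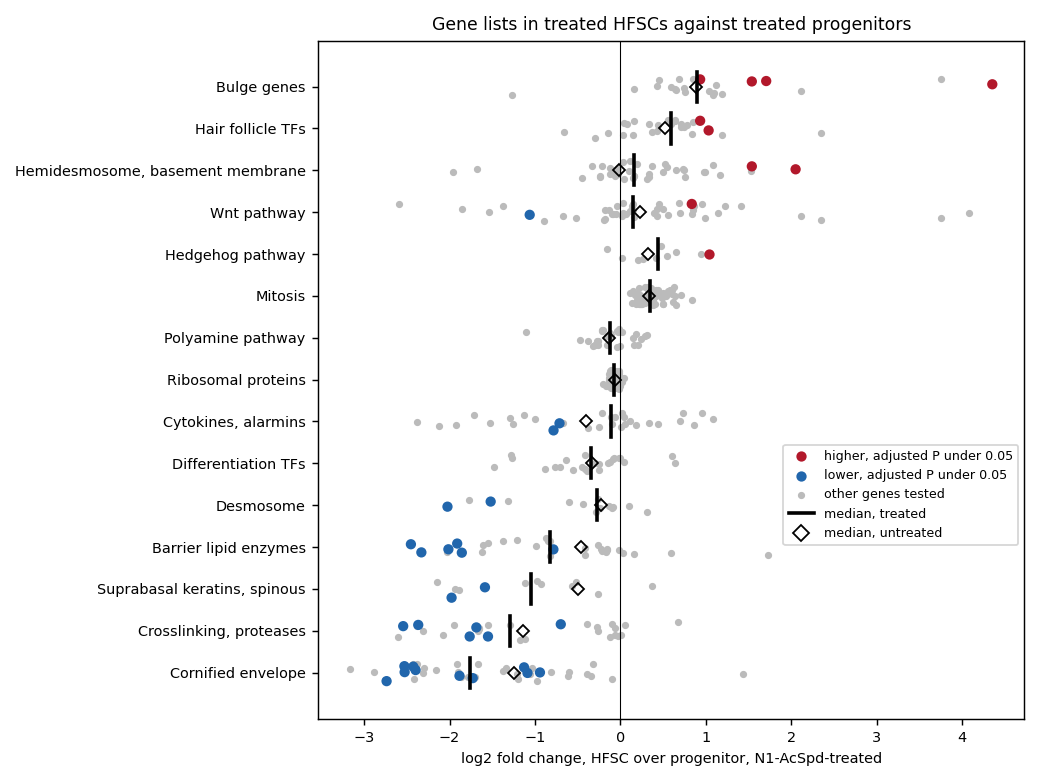
Each point is a gene of a list, at its log2 fold change in treated HFSCs over treated progenitors; coloured points passed an adjusted P of 0.05, bars mark the median of the list and open diamonds the median of the same list in the untreated contrast. Of the lists plotted, the cornified envelope list lies farthest to the left, with a median of −1.76 treated and −1.25 untreated, and the bulge list farthest to the right of those plotted, at 0.89 in both.

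Part of the lower genes lay close together in the genome. Of 33 genes tested within chr3:92339140-93015687 (GRCm38), a stretch of the epidermal differentiation complex with Sprr, Lce and Ivl genes, 11 were lower. All 33 tested genes there had a log2 fold change below 0, with a median of −2.12. A further 4 of 6 tested genes were lower within chr7:43781035-43851181, which holds Klk10, Klk8, Klk7 and Klk5, and the other two were below 0 as well, giving a median of −2.37. Both intervals were drawn around runs of at least 3 genes that passed, no more than 500 kb apart, so these counts are a description.

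The sequence upstream of these genes was read from RefSeq promoters (GRCm38.p6) for 39 of the 56 lower and 31 of the 41 higher genes. In the 250 bases before the start, on either strand, a TATA box written as TATAAA was present in 9 of 39 lower genes (23.1%), in 4 of 31 higher genes (12.9%) and in 6.22% of 9455 promoters of tested genes. The AP-1 motif TGANTCA was present in 6 lower genes (15.4%), 2 higher genes (6.45%) and 4.23% of all. Both motifs together were found in 5 lower genes, Ivl, Sprr1a, Sprr1b, Sprr2h and Sprr2d, in 1 higher gene, Pip, and in 0.613% of all. The grainyhead motif AACCNGTT was present in 2 lower and 1 higher genes and 1.66% of all, and the GC box GGGCGG in 53.8%, 54.8% and 62.0%. Some of the envelope genes with both motifs are shown to compare where the motifs lie, with Cd34 as the gene of the largest fold change among the 41 higher genes. Sequences run 5′ to 3′ in the direction of transcription and end at the base before the start; capitals mark the TATA box and the AP-1 motif, and no grainyhead motif fell in these windows.
Ivl (chr3:92573736-92573985, minus strand): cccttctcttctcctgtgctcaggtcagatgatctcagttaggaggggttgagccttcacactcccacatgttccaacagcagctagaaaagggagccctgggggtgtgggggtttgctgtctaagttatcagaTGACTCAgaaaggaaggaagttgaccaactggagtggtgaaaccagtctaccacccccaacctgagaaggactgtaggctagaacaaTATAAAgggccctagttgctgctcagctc
Sprr1a (chr3:92485882-92486131, minus strand): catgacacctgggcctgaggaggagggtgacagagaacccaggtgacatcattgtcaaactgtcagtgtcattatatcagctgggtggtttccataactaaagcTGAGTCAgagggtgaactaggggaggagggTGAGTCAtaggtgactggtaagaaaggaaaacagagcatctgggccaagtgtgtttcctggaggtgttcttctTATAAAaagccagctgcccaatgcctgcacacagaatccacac
Sprr1b (chr3:92438780-92439029, minus strand): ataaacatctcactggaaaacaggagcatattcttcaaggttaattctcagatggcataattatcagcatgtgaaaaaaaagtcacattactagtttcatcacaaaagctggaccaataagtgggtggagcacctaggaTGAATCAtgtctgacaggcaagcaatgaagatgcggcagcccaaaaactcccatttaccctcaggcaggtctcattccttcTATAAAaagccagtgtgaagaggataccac
Sprr2h (chr3:92385435-92385684, plus strand): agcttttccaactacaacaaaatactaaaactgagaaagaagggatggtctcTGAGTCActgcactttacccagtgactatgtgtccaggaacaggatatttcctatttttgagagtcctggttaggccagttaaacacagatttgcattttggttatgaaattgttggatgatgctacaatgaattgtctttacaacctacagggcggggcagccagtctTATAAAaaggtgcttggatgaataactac
Cd34 (chr1:194938571-194938820, plus strand): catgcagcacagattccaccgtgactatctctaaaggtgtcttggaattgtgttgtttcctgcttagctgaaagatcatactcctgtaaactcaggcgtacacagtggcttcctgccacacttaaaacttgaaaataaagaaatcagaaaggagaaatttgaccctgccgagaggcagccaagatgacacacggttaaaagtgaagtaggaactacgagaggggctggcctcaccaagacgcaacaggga
TATAAA begins 29 bases before the RefSeq start in Ivl and Sprr2h, 30 in Sprr1b and 43 in Sprr1a. That start is the start of the counted transcript in Ivl and Sprr2h. It lies 14 bases inside the counted transcript in Sprr1a and 10 bases inside it in Sprr1b, and 2 bases from its start in Cd34. The positions given here therefore depend on the start that was used. TGACTCA begins 116 bases before the start of Ivl, TGAGTCA at 146 and 116 bases in Sprr1a and at 198 bases in Sprr2h, and TGAATCA at 111 bases in Sprr1b. The Cd34 window contained none of these 3 motifs. Nor did the windows, not shown, of the higher gene Ptn and the lower genes Klk5, Klk7, Cdsn, Alox12b and Cnfn. A match of letters is a description and does not show that a factor binds.

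Among lists of stem cell genes the calls were in the other direction. Of 24 bulge genes, 22 were tested, 4 were higher, none was lower, and 21 were above 0, with a median of 0.89, which was 0.59 without HFSC replicate 1. The 4 were Krt15, Nfatc1, Postn and the sorting gene Cd34. Lgr5, the receptor gene of cycling hair germ and bulge cells, was at 3.21 and 0.766 CPM in HFSCs and 0.0453 and 0.242 CPM in progenitors (3.75 ± 1.10, adjusted P = 0.208), and Lgr6, its relative, at 2.80 and 0.575 CPM in HFSCs and 0.136 and 0.0484 CPM in progenitors (4.08 ± 1.10, adjusted P = 0.175). These low levels differed several-fold between the 2 HFSC libraries, and neither gene passed. Of 27 hair follicle transcription factors tested, Nfatc1 and Gli2 were higher and none was lower, with 24 above 0 and a median of 0.59. Sox9, which maintains the bulge, had 241 and 159 CPM in HFSCs and 102 and 137 CPM in progenitors (0.74 ± 0.22, adjusted P = 0.212), and Lhx2, a LIM homeobox factor of the bulge, had 15 and 8.97 CPM in HFSCs and 5.34 and 6.34 CPM in progenitors (1.03 ± 0.45, adjusted P = 0.407). For Sox9 and Lhx2 HFSC replicate 1 was well above HFSC replicate 2.

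The study displays 10 identity and 6 lineage markers for these libraries, citing earlier work for the latter, and how each was picked is not given in the sources used here. All 10 identity markers were above 0, and 2, Krt15 and Nfatc1, passed. Crip1, a LIM domain protein gene, had 14 and 10.7 CPM in HFSCs and 3.67 and 4.65 CPM in progenitors (1.57 ± 0.34, adjusted P = 0.0962), and Fzd2, a Wnt receptor gene, had 68.8 and 53.6 CPM in HFSCs and 26.0 and 35.7 CPM in progenitors (0.99 ± 0.30, adjusted P = 0.231). Dab2, an endocytic adaptor gene, had 1.79 and 0.607 CPM in HFSCs and 0.408 and 1.16 CPM in progenitors. Dkk3, a secreted Dickkopf family protein gene, had 68.3 and 28.5 CPM in HFSCs and 11 and 25.3 CPM in progenitors. Vdr, the vitamin D receptor gene, had 143 and 99.4 CPM in HFSCs and 65.7 and 82.1 CPM in progenitors. The libraries of the populations overlapped for Dab2, and its log2 fold change was −0.37 without HFSC replicate 1. Id2, an inhibitor of helix-loop-helix factors, had 22.2 and 23.1 CPM in HFSCs and 16.7 and 14.2 CPM in progenitors (0.55 ± 0.16, adjusted P = 0.208). None of the 6 lineage markers passed and all 6 were below 0, with a median of −0.38. Lypd3, a surface protein gene of suprabasal cells, had 65.9 and 96.5 CPM in HFSCs and 184 and 143 CPM in progenitors (−1.01 ± 0.19, adjusted P = 0.0631), Krt6a, a stress keratin gene, had 5173 and 5111 CPM in HFSCs and 7241 and 6561 CPM in progenitors (−0.42 ± 0.13, adjusted P = 0.218), and Krt17, its relative, had 3950 and 4044 CPM in HFSCs and 5108 and 5962 CPM in progenitors (−0.47 ± 0.20, adjusted P = 0.403). Lgals7, the gene for galectin 7, had 1031 and 1278 CPM in HFSCs and 1161 and 1388 CPM in progenitors (−0.14 ± 0.14, adjusted P = 0.794), while S100a14 and S100a16, which encode calcium-binding proteins, had log2 fold changes of −0.27 ± 0.11 and −0.33 ± 0.16 (SE).

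Signalling lists were mixed. Of 46 Wnt pathway genes tested, Sostdc1 was higher and Fzd10 lower, with 30 above 0 and a median of 0.15. Fzd10, a Frizzled receptor gene, had 7.18 and 8.01 CPM in HFSCs and 17.7 and 14.1 CPM in progenitors (−1.06 ± 0.18, adjusted P = 0.0446). Of the ligand genes, Wnt7a had 0.250 and 0.575 CPM in HFSCs and 3.62 and 1.5 CPM in progenitors (−2.59 ± 0.67, adjusted P = 0.157), and Wnt4 had 17.5 and 39.0 CPM in HFSCs and 107 and 40.3 CPM in progenitors (−1.38 ± 0.48, adjusted P = 0.288). Of 10 hedgehog genes tested, Gli2 was higher and 9 were above 0, with a median of 0.44. Of 51 BMP and TGFβ genes, Ltbp2 was higher, with a median of 0.11, and of 41 hemidesmosome and basement membrane genes, Ltbp2 and Postn were higher, with a median of 0.15. No member passed among 20 Notch genes (median 0.10) or 20 EGF family genes (median −0.06). In the list of 11 basal and stress keratins tested, Krt15 was higher, none was lower, and the median was −0.16.

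No gene of polyamine synthesis, catabolism or transport passed the test. Of 29 tested, none was called, with 8 above and 21 below 0 and a median log2 fold change of −0.12. At an unadjusted P below 0.05, 3 were lower and none was higher, against 5.89% and 6.39% of all genes tested. The populations were without overlap for 13 members in the lower and 3 in the higher direction, against 20.0% and 19.9% of all genes. The lowest log2 fold change in the list was −1.11. Odc1, encoding the rate-limiting ornithine decarboxylase, had 214 and 269 CPM in HFSCs and 338 and 222 CPM in progenitors (−0.21 ± 0.21, adjusted P = 0.794). Sat1, whose product forms N1-AcSpd from spermidine, had 308 and 217 CPM in HFSCs and 209 and 471 CPM in progenitors (−0.37 ± 0.33, adjusted P = 0.757), and Paox, whose product oxidises acetylated polyamines, had 28.4 and 23.5 CPM in HFSCs and 19.3 and 25.6 CPM in progenitors (0.21 ± 0.18, adjusted P = 0.749). The libraries of both populations were overlapping for Odc1, Sat1 and Paox, and Sat1 differed about 2-fold between the 2 progenitor libraries. The spermine oxidase gene Smox had 42.2 and 45.4 CPM in HFSCs and 58.0 and 64.0 CPM in progenitors (−0.48 ± 0.24, adjusted P = 0.486), the spermidine synthase gene Srm had 154 and 177 CPM in HFSCs and 206 and 193 CPM in progenitors (−0.27 ± 0.10, adjusted P = 0.347), and the spermine synthase gene Sms had 13.9 and 13 CPM in HFSCs and 13.5 and 13.7 CPM in progenitors (−0.02 ± 0.14, adjusted P = 0.983). The log2 fold changes were −0.12 ± 0.13 for Amd1, which supplies aminopropyl groups, −0.26 ± 0.15 for Azin1, the antizyme inhibitor gene, and 0.02 ± 0.12 for Oaz1, the antizyme gene. Eif5a, the translation factor that carries the spermidine-derived hypusine, had 771 and 865 CPM in HFSCs and 924 and 897 CPM in progenitors (−0.15 ± 0.11, adjusted P = 0.673), and its modifying enzymes Dhps and Dohh had log2 fold changes of −0.15 ± 0.10 and −0.30 ± 0.12 (SE). Slc3a2, which encodes the heavy chain of amino acid and polyamine transporters, had 441 and 444 CPM in HFSCs and 376 and 417 CPM in progenitors (0.16 ± 0.14, adjusted P = 0.754).

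All 58 mitosis genes tested had a log2 fold change above 0, with a median of 0.35, but none passed the test. Their summed level was 4418 and 6323 CPM in the HFSC libraries and 5183 and 3139 CPM in the progenitor libraries, so the populations overlapped. The median was 0.61 without HFSC replicate 1, 0.06 without HFSC replicate 2, 0.82 without progenitor replicate 1 and 0.02 without progenitor replicate 2. In the untreated contrast all 58 were above 0 as well, with a median of 0.33, and none had an unadjusted interaction P below 0.05. Top2a, encoding the mitotic topoisomerase IIα, had 237 and 328 CPM in HFSCs and 228 and 143 CPM in progenitors (0.61 ± 0.34, adjusted P = 0.558), and Mki67, the gene for the proliferation antigen Ki-67, had 461 and 550 CPM in HFSCs and 465 and 311 CPM in progenitors (0.38 ± 0.29, adjusted P = 0.71). The 55 DNA replication genes had a median of 0.09 with no call, which became −0.08 without HFSC replicate 2 and −0.11 without progenitor replicate 2. Ribosomal protein genes (79 tested, median −0.07), ribosome assembly genes (60 tested, median −0.10), S100 genes (12 tested, median −0.13) and immediate early and heat shock genes (27 tested, median −0.13) had no member past the threshold. Of the ribosome assembly genes, 53 were below 0 and 2 were lower at an unadjusted P below 0.05. The populations were without overlap for 34 of them in the lower and 1 in the higher direction, against 20.0% and 19.9% of all genes tested. Of the ribosomal protein genes, 76 were below 0 and 5 were without overlap, all lower. Of 38 chaperone and stress genes of the endoplasmic reticulum tested none passed either, with 37 below 0, 13 lower at an unadjusted P below 0.05 and a median of −0.21.

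Markers of dermal, immune, endothelial, melanocyte and Merkel cells were low. The 9 dermal fibroblast genes summed to 6.01 and 2.23 CPM in HFSCs and 1.63 and 15.7 CPM in progenitors, with Lum at 0, and had a median log2 fold change of −1.30 over 5 tested genes, and of 1.31 without progenitor replicate 2. The 10 immune genes summed to between 5.25 and 16.8 CPM, with 6 at 0, among them Ptprc and Cd3e. The 6 endothelial genes summed to between 0.968 and 2.26 CPM, with Cdh5, Emcn and Cldn5 at 0, the 8 melanocyte genes to between 7.89 and 8.76 CPM and the 6 Merkel cell genes to under 1 CPM. No tested member of these lists passed, nor did any of 4 tested hair shaft genes or 7 tested sebaceous genes. The sebaceous list summed to 728 and 684 CPM in HFSCs and 822 and 859 CPM in progenitors, with its defining gene Awat1 at 0, and the hair shaft list to between 31.6 and 45.1 CPM, with 5 keratins at 0. The list of infundibulum and interfollicular epidermis genes summed to 601 and 825 CPM in HFSCs and 1041 and 837 CPM in progenitors. In it Postn was higher, the other 5 tested members were below 0, and the median was −0.66. The part of these cells in the results was not tested.

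The same populations without N1-AcSpd differed in the same direction. All 97 genes had the same sign in the untreated contrast, which uses other libraries, and the untreated libraries were apart in that direction for 41 of the 41 higher and 53 of the 56 lower genes, against 19.6% and 22.1% of all genes tested. In that contrast 20 genes passed, or 0.163% of those tested, and 3 passed with the replicate number as a block. The count was 3 without HFSC replicate 1, 7 without HFSC replicate 2 and 1 when either progenitor library was left out. Of the 20 untreated calls, 19 are among the 97, which is 95% of the untreated and 19.6% of the treated calls. The median log2 fold change of the higher genes was 1.27 treated and 0.97 untreated, and that of the lower genes −1.72 and −1.19. The treated contrast chose these genes, so a smaller untreated value is in part built into the choice.

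The difference between the 2 contrasts was tested directly as an interaction, and edgeR called 0 of 12242 genes, as did DESeq2, with 82 genes at an unadjusted P below 0.05 in edgeR, 0.67% of those tested. The smallest unadjusted P belonged to Hist1h2ap, with a log2 fold change of 2.73 treated and 0.55 untreated (interaction 2.18 ± 0.42, unadjusted P = 0.000819, adjusted P = 0.9999). Usp2, encoding a deubiquitinase, had log2 fold changes of −1.72 and −0.15 (interaction −1.56 ± 0.37, unadjusted P = 0.00287, adjusted P = 0.9999). Susd2 had 1.84 and 0.98 (0.85 ± 0.22, unadjusted P = 0.00413, adjusted P = 0.9999), and Tmem40, a transmembrane protein gene, had −0.83 and −0.11 (−0.72 ± 0.20, unadjusted P = 0.00615, adjusted P = 0.9999). Of the 3 genes with the smallest interaction P in each direction, 2 were outside the 97. Krt19, encoding a keratin of the outer root sheath, had 19.8 and 24.2 CPM in HFSCs and 10.8 and 6.58 CPM in progenitors, against 6.90 and 6.00 CPM in untreated HFSCs and 6.39 and 13.4 CPM in untreated progenitors, so its sign turned from −0.61 untreated to 1.34 treated (1.95 ± 0.50, unadjusted P = 0.00424, adjusted P = 0.9999). Rnf39, a RING finger protein gene, turned from 0.53 to −0.60 (−1.14 ± 0.30, unadjusted P = 0.00559, adjusted P = 0.9999). The cornified envelope list had 3 of 42 members at an unadjusted interaction P below 0.05, with medians of −1.76 treated and −1.25 untreated, and the suprabasal list 1 of 12, with medians of −1.05 and −0.49. Other lists had a smaller median when treated. The 10 identity markers had medians of 0.96 treated and 1.28 untreated, and the difference was larger when treated for 3 of them. Medians were 0.15 and 0.23 for the Wnt list and −0.11 and −0.40 for cytokines and alarmins. Of all 12242 genes, 6381 had the larger difference when treated.

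**Figure D4:**
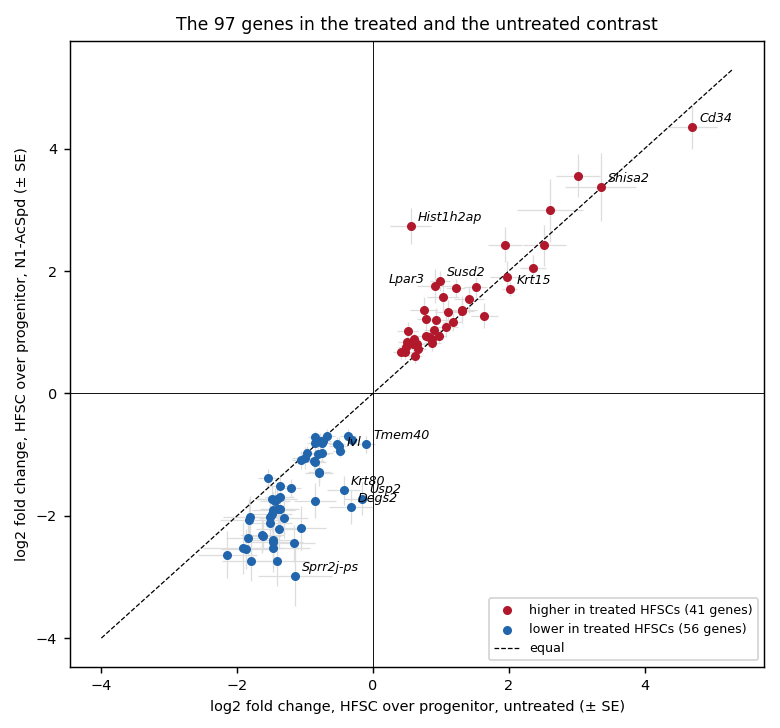
The 97 genes by their log2 fold change in HFSCs over progenitors without N1-AcSpd (horizontal, ± SE) and with N1-AcSpd (vertical, ± SE); the dashed line marks equal values, red points are the 41 higher and blue points the 56 lower genes. All points lie in the lower left or upper right quadrant, and Hist1h2ap, Usp2 and Degs2 are among those farthest from the line.

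Placed side by side, the 4 RNA-seq groups had a common order for the lower genes. In 54 of the 56 the 2 treated progenitor libraries were above all other 6 libraries, an order found in 8.43% of all genes tested, and in 46 the 2 untreated HFSC libraries were below all other 6, found in 8.3%. In 46 of the 56 both treated HFSC libraries were above both untreated HFSC libraries, found in 16.6% of all genes. Treated HFSCs were above untreated progenitors for 8 of these genes (18.3% of all genes) and below them for 21 (21.0% of all genes), and overlapped with them for the rest. The share above was no larger than the background, and the share below exceeded it. Ivl had 15.6 and 15 CPM in untreated HFSCs, 29 and 29.5 in treated HFSCs, 21.3 and 21.6 in untreated progenitors and 56.4 and 56.1 in treated progenitors. For the higher genes, both treated libraries were below both untreated libraries in 30 of 41 within HFSCs and in 35 of 41 within progenitors, against 17.7% and 21.6% of all genes. Krt15 had 682 and 765 CPM in untreated HFSCs against 347 and 308 in treated HFSCs, and 169 and 190 in untreated against 104 and 97 in treated progenitors. Since the treated libraries chose the genes, these orders are given without a test.

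Footprints from the same lysates were sparse, with between 59948 and 151892 footprints on the transcripts kept in the 4 treated Ribo-seq libraries. The 41 higher genes took 4.19 and 4.99 per mille of footprints in HFSCs and 1.74 and 1.79 in progenitors, and the 56 lower genes 4.23 and 3.54 in HFSCs and 8.19 and 8.53 in progenitors. The libraries of the 2 populations were apart for both sets, in the direction of the RNA. Of the 97 genes, 15 had the mean of 10 footprints needed for the test, and 14 of them had the sign of their RNA difference. That mean was taken over both populations, so a gene could reach it through the population where it was high. The 97 genes were also chosen on RNA of the same lysates, so these signs are not independent of the choice. At an unadjusted P below 0.05, 6 of the 7 higher and 5 of the 8 lower genes passed, against 4.43% of all genes tested in Ribo-seq. In Ribo-seq, 1 of 2259 genes passed (0.0443%), which was Krt15, and 11 passed with the replicate number as a block. None passed without HFSC replicate 2 or without either progenitor library, and 4 passed without HFSC replicate 1. Krt15 had 145 and 68 footprints in HFSCs and 24 and 13 in progenitors, a log2 fold change of 2.03 ± 0.37 (adjusted P = 0.0225). Cdsn had 10 and 3 footprints in HFSCs and 28 and 23 in progenitors (−2.54 ± 0.68, adjusted P = 0.268), and Pip had 20 and 9 against 1 and 1 (3.22 ± 0.88, adjusted P = 0.280). Abca12 had the opposite sign, with 18 and 15 footprints in HFSCs and 6 and 4 in progenitors (1.32 ± 0.70, unadjusted P = 0.0696), against −0.78 ± 0.12 for its RNA, and the difference between the readouts was not tested. Cd34 had 10 and 8 footprints in HFSCs and 0 in both progenitor libraries, where a count of 0 allows up to 3 footprints in each.

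**Figure D5:**
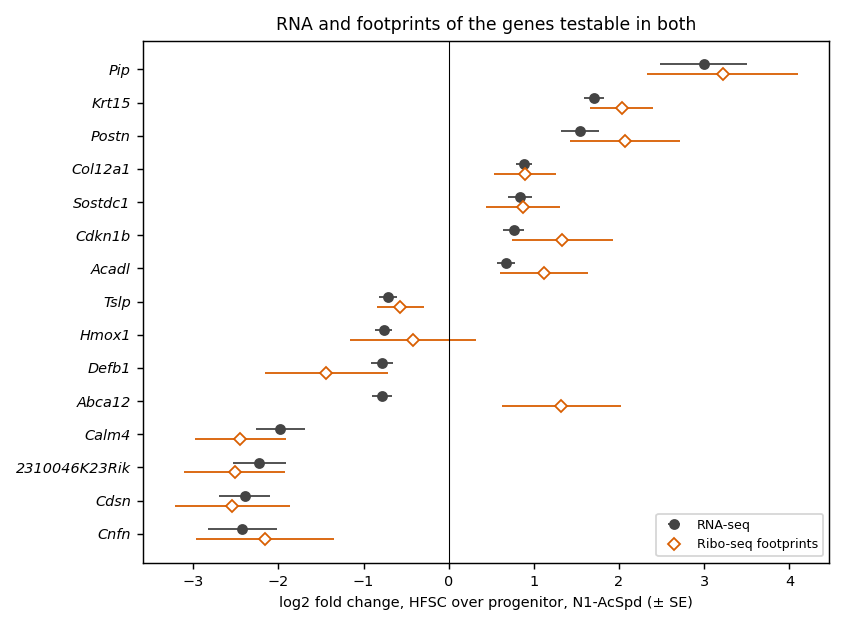
Log2 fold change in treated HFSCs over treated progenitors (± SE) of the 15 genes that passed in RNA-seq and had enough footprints to be tested; filled circles are RNA-seq and open diamonds Ribo-seq. The paired values lie on the same side of 0 except for Abca12, and the errors of the footprint values are larger than those of RNA-seq for every gene shown.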

How the data were processed

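RNA-seq libraries were made from ribosomal RNA-depleted RNA of the lysates used for Ribo-seq. The counts, as deposited by the authors, are whole reads per transcript. For Ribo-seq the authors trimmed reads with flexbar, removed ribosomal and transfer RNA reads with bowtie and aligned the rest to mm10 with STAR, whereas the steps for RNA-seq are not given separately in the sources used here. The submitters' processing notes name STAR 2.7.3a, Bowtie 1.2.3, featureCounts and GRCm38.p5 with no role, and the strand setting is not given, so overlapping and antisense genes may share reads. The tables hold several transcripts of a gene, which may share reads, so each gene was represented by its transcript with the highest sum of Ribo-seq counts, which left 22579 of 64026 transcripts. A further 33 gene identifiers with a shared symbol or none were left out.

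The counts were tested with edgeR 4.0.16 (R 4.3.3, limma 3.58.1), using TMM factors, the quasi-likelihood test, two-sided, and Benjamini-Hochberg adjustment over all genes whose counts averaged 10 or more in the libraries of the assay. SE was derived from the log2 fold change and its F statistic. The steps were tested on simulated data. Alternatives were DESeq2 1.42.0, RLE factors, other minimum counts, another transcript, only the 4 libraries compared, a replicate block, and leaving out each library. The library titles number the replicates 1 and 2 and do not name a mouse. The replicate block took equal numbers as the same mouse. Differences between replicates correlated at 0.67, 0.47 and 0.35 among 3 RNA-seq groups, at −0.41, −0.38 and −0.63 with treated HFSCs, and at 0.01 to 0.10 in Ribo-seq. With 2 samples a group an exact permutation test could not go below 0.333, so only P from fits across all genes are given, and the libraries of 2 mice set their spread.

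The genes named were the markers of the study and of the populations, the 12 genes with the smallest P in each direction, up to 6 called members of each list with reference members, and the 3 genes with the smallest interaction P in each direction. Further genes that passed, such as Matn2, Hmox1 or Cldn4, were chosen after their values were seen. The members and lists were chosen with earlier results of these data known. The authors' tables of differential translation (Riborex) between pairs of groups hold their own fold changes and P, which were not used.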

Additional observations from a re-analysis of the deposited data

How the results depend on the processing

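The 97 calls of the treated contrast changed by less than 1.5 times with RLE factors, a minimum mean count of 1, the transcript with the most RNA-seq counts, or a minimum over the 4 treated libraries, the last chosen after seeing the data. DESeq2 called 389 genes (188 higher, 201 lower), no minimum count 256 (113 and 143) and the 4 libraries compared alone 22 (9 and 13). The replicate block left 33 (17 and 16). With the numbers of the treated HFSC libraries exchanged in the block, chosen after seeing the data, 882 genes passed (495 and 387) in the treated and 723 in the untreated contrast. Leaving out 1 library gave 0 to 18 calls, 0 to 7 higher and 0 to 11 lower. The untreated contrast had 273 calls with DESeq2, 168 with no minimum, 3 with the replicate block and 1 to 7 with 1 library left out. The interaction had 0 calls in every setting run. Ribo-seq had 3 calls with a minimum of 1, 2 with no minimum, 11 with the replicate block and 0 to 4 with 1 library left out. The cause of these differences was not tested, beyond the fewer samples of the smaller fits; where a group kept 1 library, it was assumed to vary like the other groups. No gene named as passing turned its direction. Over 13 settings, list medians that changed sign ranged from −0.09 to 0.09 (EGF family), −0.26 to 0.19 (immediate early and heat shock), −0.11 to 0.36 (DNA replication), −0.27 to 0.05 (S100), −0.17 to 0.03 (ribosomal proteins), −2.30 to 1.31 (dermal fibroblast) and −0.39 to 0.32 (hair shaft). Medians that kept their sign but moved by over 1.5 times ranged from 0.05 to 0.19 (Wnt), 0.02 to 0.14 (BMP and TGFβ), 0.02 to 0.17 (Notch), 0.11 to 0.30 (hemidesmosome and basement membrane), 0.27 to 0.58 (hedgehog), −0.14 to −0.07 (polyamine), −0.41 to −0.11 (basal and stress keratins) and −1.11 to −0.45 (infundibulum and interfollicular epidermis), and, as given beside those results, for the mitosis, bulge, barrier lipid, protease and cytokine lists. Footprint depth limited the second readout to 15 of the 97 genes, and limits from a count of 0 cover counting error only.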
